A study of Mus musculus with 6 samples.

Results

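The pentose phosphate pathway was followed through 9 enzymes in C2C12 myoblasts depleted of Cox7a2l. These were glucose-6-phosphate dehydrogenase (G6pdx), 6-phosphogluconolactonase (Pgls), 6-phosphogluconate dehydrogenase (Pgd), ribose-5-phosphate isomerase (Rpia), ribulose-5-phosphate epimerase (Rpe), transketolase (Tkt), transaldolase (Taldo1) and the phosphoribosyl pyrophosphate (PRPP) synthetases Prps1 and Prps2. Each symbol matched 1 gene row, so the set is 9 of 52740 gene rows, and all 9 were among the 15022 genes that passed the expression filter. The set was chosen by measured values of the siCOX7A2L to siCTRL comparison: it was built around Taldo1, whose change in these libraries was already known, and the other enzymes were taken because they belong to the same pathway. Every difference between the groups in these 9 genes is therefore a description of the data and supports nothing by itself.

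The 6 libraries came from C2C12, a cell line of mouse myoblasts that fuse into myotubes when serum is withdrawn. All cells were kept in DMEM with 10% fetal bovine serum and received an siRNA with the transfection reagent RNAiMAX. In the siCTRL group (3 libraries) the siRNA was a random control, and in the siCOX7A2L group (3 libraries) it was directed against Cox7a2l, whose product helps to join respiratory complexes III and IV in the inner mitochondrial membrane. No genetic change and no time after transfection is given in the labels, and C2C12 is a single line, so the results describe siRNA depletion in 1 cell line. Total RNA was depleted of ribosomal RNA and sequenced as dUTP-stranded libraries. By its title, the series concerns the differentiation of myoblasts.

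The pentose phosphate pathway branches from glycolysis at glucose 6-phosphate. Its oxidative arm (G6pdx, Pgls, Pgd) yields NADPH, the reductant used for lipid synthesis and for keeping glutathione and thioredoxin reduced, and ends in a pentose phosphate. Its reversible non-oxidative arm (Rpia, Rpe, Tkt, Taldo1) interconverts pentose phosphates with the glycolytic sugars fructose 6-phosphate and glyceraldehyde 3-phosphate, and the PRPP synthetases draw off ribose 5-phosphate for nucleotide and NAD synthesis. Several of these enzymes, Taldo1, Tkt, G6pdx and Pgd among them, are described targets of the redox-responsive transcription factor Nfe2l2 (NRF2), which binds antioxidant response elements.

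The 250 bases before the annotated start of 3 of the genes are shown because these genes mark the range of the set: Taldo1 was the enzyme with the highest siCOX7A2L to siCTRL ratio, Prps2 the one with the lowest, and G6pdx catalyses the entry step and hardly differed. The sequences are those of RefSeq on GRCm38.p6, read 5′ to 3′ on the gene's own strand, at chr7:141391910-141392159 (plus strand) for Taldo1, chrX:74428881-74429130 (minus strand) for G6pdx and chrX:167382750-167382999 (minus strand) for Prps2. Capitals mark matches to any of 3 short motifs on either strand: the antioxidant response element core TGACNNNGC, the GC box GGGCGG and the CCAAT box. No 2 matches overlap in these windows.
Taldo1: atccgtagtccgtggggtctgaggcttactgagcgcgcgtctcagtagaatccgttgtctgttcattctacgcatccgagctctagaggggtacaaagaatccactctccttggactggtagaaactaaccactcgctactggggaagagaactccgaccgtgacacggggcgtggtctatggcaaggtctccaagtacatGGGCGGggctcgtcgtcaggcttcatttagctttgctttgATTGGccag
G6pdx: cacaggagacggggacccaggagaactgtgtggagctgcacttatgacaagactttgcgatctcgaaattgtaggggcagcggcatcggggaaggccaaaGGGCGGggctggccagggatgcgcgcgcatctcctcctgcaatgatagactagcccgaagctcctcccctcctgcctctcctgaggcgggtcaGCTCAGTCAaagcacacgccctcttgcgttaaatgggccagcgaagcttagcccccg
Prps2: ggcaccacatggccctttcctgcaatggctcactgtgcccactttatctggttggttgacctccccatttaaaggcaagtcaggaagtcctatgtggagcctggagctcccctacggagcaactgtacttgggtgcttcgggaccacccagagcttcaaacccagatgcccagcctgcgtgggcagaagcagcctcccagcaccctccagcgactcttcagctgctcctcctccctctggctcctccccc
In the Taldo1 window the capitals are a GC box and, close to the start, a CCAAT box on the opposite strand. In the G6pdx window they are a GC box and an antioxidant response element core on the opposite strand. The Prps2 window held no match.

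The same search over windows of 300 bases (250 before and 50 after each start) covered all 9 genes, with 10 windows because RefSeq gives Pgd 2 starts. The antioxidant response element core was found for 2 of 9 genes, G6pdx and Pgd, and in 12.4% of all 32851 RefSeq windows of that length. The GC box was found for 8 of 9 genes, every one but Prps2, and in 35.7% of all windows. The CCAAT box was found for 4 of 9 genes (Taldo1, Pgd, Rpe and Prps1) and in 37.4% of all windows. For Pgd the antioxidant response element core lay in only 1 of the 2 windows, and there just after the annotated start. The GC and CCAAT boxes of Pgd lay in its other window, which held no such core. The counts are per gene, and the shares are per window over genes of any expression, so no excess is read from them. The motif hits are letter matches only. Whether any factor binds there was not measured.

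Library totals ran from 9890218 estimated counts (siCOX7A2L replicate 3) to 17077826 (siCTRL replicate 3). Cox7a2l, the targeted gene, was at 58.0, 59.5 and 58.9 CPM (counts scaled to library size, with TMM factors) in siCTRL replicates 1 to 3 and at 6.72, 5.90 and 3.59 CPM in siCOX7A2L, which matches the labels. Replicate 3 stood apart in both groups. Its 6 differentiated muscle markers (Myog, Myh3, Mymk, Ckm, Acta1 and Tnnt3) were each higher than in replicates 1 and 2 of the same group and summed to 136 CPM in siCTRL and 324 CPM in siCOX7A2L, against 6.88 to 20.2 CPM in the other 4 libraries. The mitochondrially encoded protein mRNAs took 2.78% and 1.61% of counts in replicate 3 of siCTRL and siCOX7A2L, against 0.589% to 0.616% in the others. The 8 myoblast markers, Myod1 and Desmin (Des) included, summed to 1798 to 3578 CPM. Of the markers of other cell types, the 4 endothelial genes summed to 0.492 to 1.14 CPM, the 4 blood and macrophage genes to 1.26 to 3.19 CPM (mostly Cd68), the 4 adipocyte genes to 7.18 to 13.7 CPM (nearly all Pparg) and the 3 neural genes to 41.7 to 114 CPM (nearly all Tubb3). The 3 epithelial genes summed to 0.344 to 0.660 CPM in siCTRL and 1.33 to 3.71 CPM in siCOX7A2L, mostly Cdh1, with Epcam at 0 in every library, and the part of these in the results was not tested. Whether the replicates were grown as separate cultures is not stated in the labels, so each p-value rests on a spread among libraries that may be technical.

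Of the 9 enzymes, Taldo1 alone had an adjusted p below 0.05 in siCOX7A2L against siCTRL, and it was higher. The other 8 had log2 fold changes from -0.73 (Prps2) to 0.13 (Pgd). The test was edgeR's quasi-likelihood test with replicate number as a block and Benjamini-Hochberg adjustment over all 15022 genes. In that test 0.726% of all genes were called, 0.433% higher and 0.293% lower in siCOX7A2L. Since this comparison chose the set, nothing is read from 1 called enzyme in 9 against those shares. The median log2 fold change of the 9 was 0.06, beside 0.01 over all genes tested, with 5 enzymes above 0 and 4 below. The count of called enzymes was 2 without replicate 1, where 373 of all 15220 genes tested were called. It was 3 (Taldo1, Prps2 and Tkt) without replicate 2 (1210 of 15384 genes) and 1 without replicate 3 (51 of 15053). Without the replicate block it was 0 by edgeR (2 of 15022 genes) and 1 (Taldo1) by DESeq2 (27 of 18803). The count of enzymes thus rose and fell with that of all genes.

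**Figure D1:**
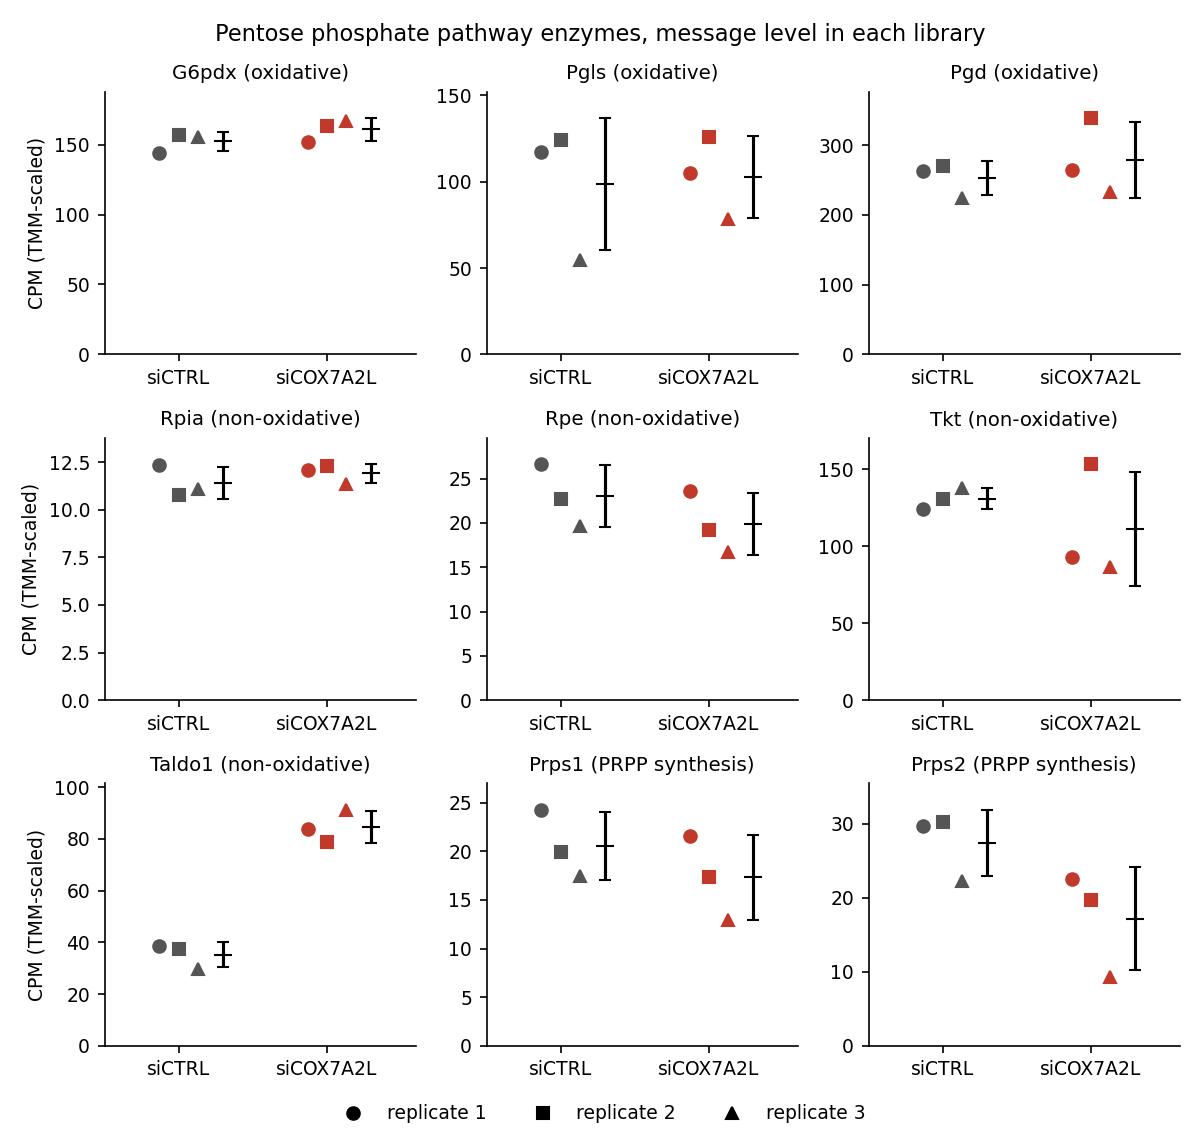
CPM of each enzyme in each library (vertical axes, TMM-scaled, from 0), with siCTRL in grey and siCOX7A2L in red, symbols for the replicate number, and the group mean ± SD (n = 3) as a bar beside the points. Taldo1 lay at 29.6 to 38.6 CPM in siCTRL and 78.7 to 91.3 CPM in siCOX7A2L, and the points of the other 8 enzymes overlapped between the groups.

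Taldo1 (ENSMUSG00000025503.6) moves a 3-carbon unit between sugar phosphates in the non-oxidative arm. It was measured at 38.6, 37.3 and 29.6 CPM in siCTRL replicates 1 to 3 and at 83.8, 78.7 and 91.3 CPM in siCOX7A2L replicates 1 to 3. All 3 siCOX7A2L libraries were above all 3 siCTRL libraries, with no value in between. The means were 35.2 ± 4.89 and 84.6 ± 6.33 CPM (SD, n = 3 each), and siCOX7A2L was 2.17, 2.11 and 3.09 times siCTRL within replicates 1, 2 and 3. The fitted log2 fold change was 1.27 ± 0.15 (SE), a 2.41-fold difference, with an edgeR adjusted p of 0.00565. Without replicate 3 the log2 fold change of Taldo1 was 1.10 ± 0.12 with an edgeR adjusted p of 0.00886. The ratio was highest in the pair with raised differentiation markers, and the part of those markers in it was not tested. Without the replicate block the fold change was as large, 1.27, and the adjusted p was 0.311 by edgeR and 2.7e-06 by DESeq2. TPM also divides by transcript length and was used without TMM factors. On log2 TPM, tested with limma and the same block, the Taldo1 difference was 0.98 with an adjusted p of 0.0871. The median log2 fold change of all genes on that scale was -0.21. With the most abundant gene row left out of TPM, the Taldo1 means were 47.5 in siCTRL and 107.9 in siCOX7A2L. Within siCOX7A2L, replicate 3 had the highest Taldo1 by CPM (91.3) and the lowest by TPM (46.7).

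The Taldo1 difference was carried by 510 to 585 estimated counts per siCTRL library and 813 to 1322 per siCOX7A2L library. Of the 31-base words in its annotated transcripts, 14.0% also occur in another gene, nearly all of them in the gene model Gm17823, which held 6 to 18 counts per library. In the authors' deposited table the log2 fold change of Taldo1 was 1.26 with an adjusted p of 4.2e-13. The authors' deposited table called 2 of the 9 enzymes, Taldo1 and Prps2, where 6.34% of its 12742 genes with an adjusted p were called.

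Transketolase works beside transaldolase and exchanges 2-carbon units between the same sugars. Tkt was at 124, 131 and 138 CPM in siCTRL and at 93.4, 154 and 86.6 CPM in siCOX7A2L. In siCOX7A2L, replicates 1 and 3 were below every siCTRL library and replicate 2 was above them, so the groups overlapped, and the within-number ratios were 0.753, 1.17 and 0.628. The fitted log2 fold change of Tkt was -0.28 ± 0.16 (SE).

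The isomerase Rpia and the epimerase Rpe set out the pentose phosphates that transketolase uses. Rpia, the least abundant enzyme, was at 12.3, 10.8 and 11.1 CPM in siCTRL and 12.1, 12.3 and 11.3 CPM in siCOX7A2L. These 6 Rpia values lie within 1 narrow band shared by the groups, and the log2 fold change was 0.06 ± 0.17. Rpe was at 26.7, 22.7 and 19.7 CPM in siCTRL and 23.6, 19.2 and 16.7 CPM in siCOX7A2L. Each siCOX7A2L library had less Rpe than the siCTRL library of its number (ratios 0.886, 0.844 and 0.849), yet the ranges of the groups overlapped, and the log2 fold change was -0.22 ± 0.15.

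In the oxidative arm no enzyme separated the groups. G6pdx, which commits glucose 6-phosphate to the pathway, was at 144, 157 and 156 CPM in siCTRL and 152, 164 and 167 CPM in siCOX7A2L. Its within-number ratios of 1.05, 1.04 and 1.07 were the most even of the set, and its log2 fold change was 0.08 ± 0.11. Pgd, the second NADPH-forming step, was at 263, 270 and 225 CPM in siCTRL and 264, 339 and 232 CPM in siCOX7A2L. Only siCOX7A2L replicate 2 lay above the siCTRL range of Pgd, and the log2 fold change was 0.13 ± 0.12.

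Pgls hydrolyses the lactone between those steps, and it differed by replicate number more than by siRNA. It was at 117, 124 and 54.5 CPM in siCTRL and at 105, 126 and 78.3 CPM in siCOX7A2L. Replicate 3 was the lowest library in both groups, at 0.453 times the geometric mean of replicates 1 and 2 in siCTRL and 0.682 times in siCOX7A2L. Against siCTRL, the log2 fold change of Pgls was 0.12 ± 0.15 with all libraries and -0.07 without replicate 3.

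By CPM, the PRPP synthetases were both lower in every siCOX7A2L library than in the siCTRL library of the same number, and in neither did the groups separate. Prps1 was at 24.3, 19.9 and 17.4 CPM in siCTRL and 21.6, 17.4 and 12.9 CPM in siCOX7A2L. Its ratios were 0.890, 0.876 and 0.740, and its log2 fold change was -0.26 ± 0.16. Of the 31-base words in Prps1 transcripts 18.5% occur in the copy Prps1l3, which held 148 to 354 counts per library beside 115 to 368 for Prps1. Reads of these genes can be divided between them, so the Prps1 level is uncertain.

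Prps2 was at 29.7, 30.3 and 22.2 CPM in siCTRL and at 22.6, 19.7 and 9.32 CPM in siCOX7A2L. The highest siCOX7A2L value was just above the lowest siCTRL value, and the ratios within replicates 1, 2 and 3 were 0.759, 0.649 and 0.420. The fitted log2 fold change of Prps2 was -0.73 ± 0.18, or 0.603-fold, with an edgeR adjusted p of 0.0851. Taldo1 at 0.00565 and Prps2 at 0.0851 are thus the enzymes nearest to the threshold of 0.05 on its 2 sides. In the authors' deposited table Prps2 was on the other side of that threshold, with a log2 fold change of -0.74 and an adjusted p of 0.0101. Prps2 was carried by only 83 estimated counts in siCOX7A2L replicate 3, and without that replicate number its log2 fold change was -0.51.

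Over the set, 1 of 9 enzymes (Taldo1) had groups that did not overlap, and so had 15.6% of all genes tested. In 6 of 9 enzymes the log2 CPM difference had the same sign in all 3 replicate numbers, and 42% of all genes did so. Of these enzymes Taldo1, G6pdx and Pgd were higher, and Rpe, Prps1 and Prps2 lower. Both counts come from the comparison that chose the set. In bulk RNA, fewer cells of a kind and less message per cell cannot be told apart.

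**Figure D2:**
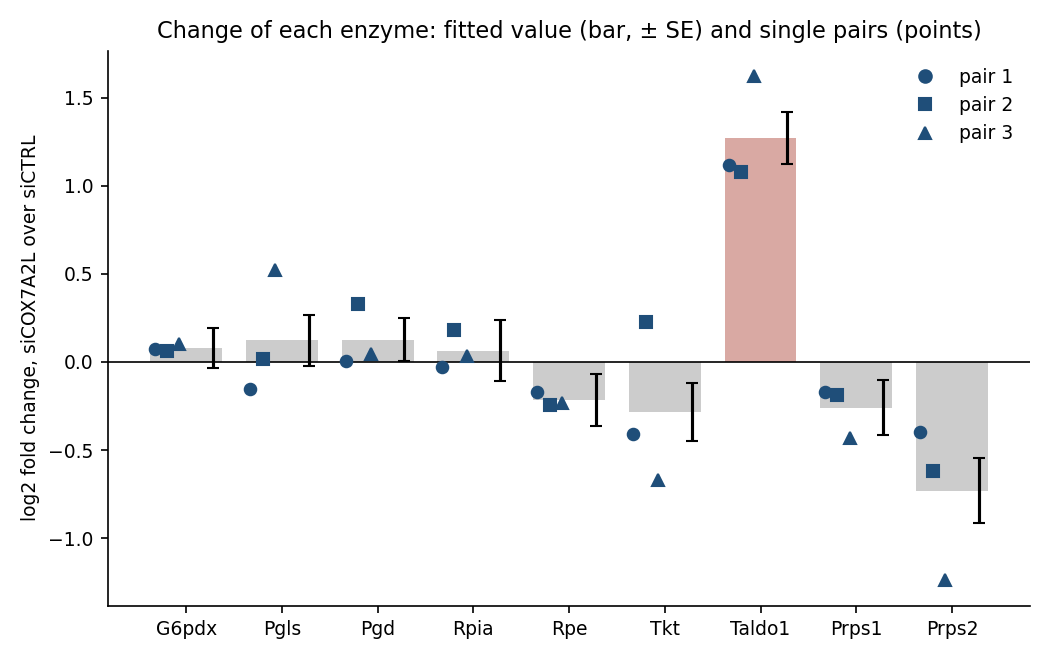
Log2 fold change of each enzyme, siCOX7A2L over siCTRL: bars with ± SE give the edgeR fit over 6 libraries, symbols the log2 difference within replicates 1, 2 and 3, and the red bar the enzyme with an adjusted p under 0.05. The Taldo1 symbols lie at 1.11, 1.07 and 1.62, those of Prps2 at -0.39, -0.62 and -1.24, and in both the replicate 3 difference is the furthest from 0.

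Replicate number is a separate term of the same model and was not used to choose the enzymes. Of the 9, Pgls alone passed the edgeR test of replicate number, with an adjusted p of 0.0106, and 18.8% of all genes passed it. Prps2 missed it at an edgeR adjusted p of 0.0546, with replicate 3 at 0.741 times the other siCTRL libraries and 0.446 times the other siCOX7A2L libraries. For Taldo1 the adjusted p of replicate number by edgeR was 0.886. Replicate 3 was below replicates 1 and 2 of Taldo1 in siCTRL (0.780 times) and above them in siCOX7A2L (1.12 times). Without any 1 library Pgls still passed this test, with edgeR adjusted p from 0.000155 to 0.0305. The count of enzymes past it was then 1 to 3, with 2498 to 4116 of all genes past it (2827 with all libraries). Prps2 joined in 4 of these 6 fits. They were those without siCTRL replicate 1 (edgeR adjusted p = 0.0179), siCTRL replicate 2 (0.00585), siCTRL replicate 3 (0.00733) and siCOX7A2L replicate 2 (0.00631). Tkt joined without siCTRL replicate 2, the fit that called the most genes (4116).

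**Figure D3:**
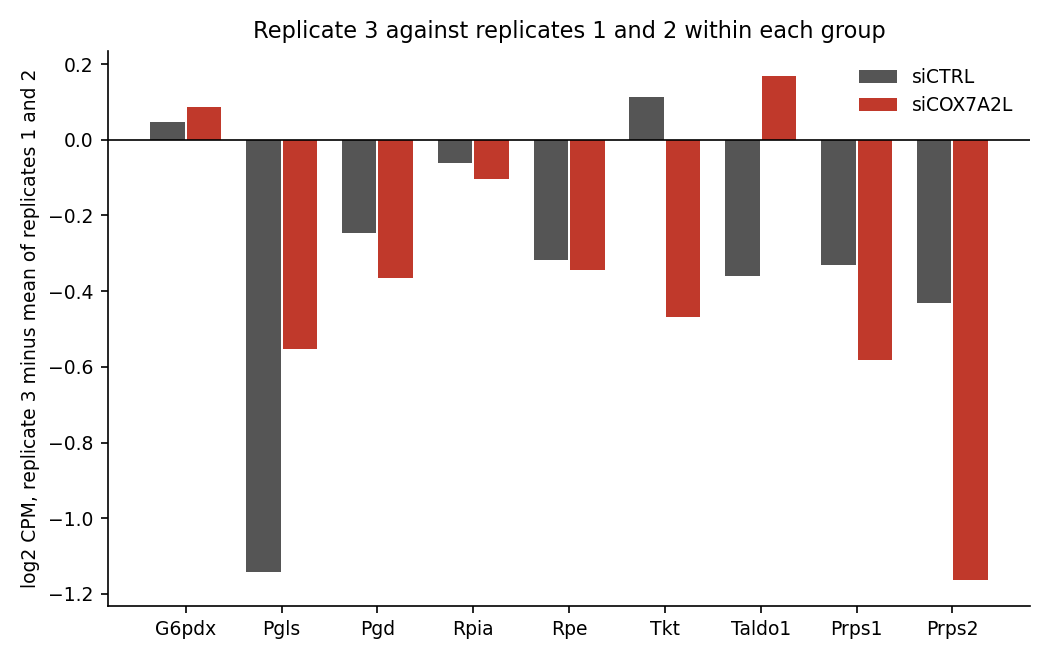
Log2 CPM of replicate 3 minus the mean of replicates 1 and 2, for each enzyme in siCTRL (grey) and siCOX7A2L (red), with no error bars because each bar rests on 3 libraries. Pgls is low in replicate 3 of both groups (-1.14 and -0.55), Prps2 most so in siCOX7A2L (-1.16), and Taldo1 is on opposite sides of 0 in the groups (-0.36 and 0.17).

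Levels of different enzymes were compared per length, as TPM. Over the 6 libraries the order of the mean TPM was Pgd (103.7), Pgls (102.1), G6pdx (55.4), Tkt (50.5), Taldo1 (42.3), Prps2 (10.1), Prps1 (9.70), Rpe (9.49) and Rpia (5.04). Each enzyme's range over the 6 libraries overlapped that of the next in this order, except between Taldo1 (at least 24.1 TPM) and Prps2 (at most 14.0 TPM). The set thus held an abundant group, made of the NADPH-forming arm with the 2 transferases, and a scarce group, made of the isomerase, the epimerase and the PRPP synthetases. Rpia was last in every library. The order within the scarce group differed between the siRNAs: by mean TPM, Prps2 (12.4) was above Rpe (10.3) and Prps1 (9.95) in siCTRL and below both in siCOX7A2L (7.72, against 8.68 and 9.45), with overlapping libraries. Taldo1 had rank 5 in all 3 siCTRL libraries, at 30.7, 29.7 and 24.1 TPM. At 65.5, 56.8 and 46.7 TPM in siCOX7A2L it had ranks 3, 5 and 3.

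As a share of the summed TPM of the 9 enzymes, Taldo1 made up 7.29%, 6.84% and 7.36% in siCTRL and 15.3%, 12.1% and 19.0% in siCOX7A2L. The TPM ratio of Taldo1 to Tkt, the other transferase of the arm, was 0.540, 0.483 and 0.443 in siCTRL. In siCOX7A2L this ratio was 1.50, 0.892 and 2.05, so Taldo1 message per length exceeded that of Tkt in replicates 1 and 3 and was below it in replicate 2. The non-oxidative arm as a whole held 26.0% ± 2.14 of the summed TPM in siCTRL and 30.0% ± 1.67 in siCOX7A2L (SD, n = 3 each). Without Taldo1 its other enzymes held 18.8% ± 1.96 and 14.5% ± 2.00. The oxidative arm held 68.3% ± 2.69 and 65.5% ± 2.14, and the PRPP synthetases 5.71% ± 0.691 and 4.59% ± 0.611. These shares add to a fixed total, so a higher share of Taldo1 lowers the others.

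**Figure D4:**
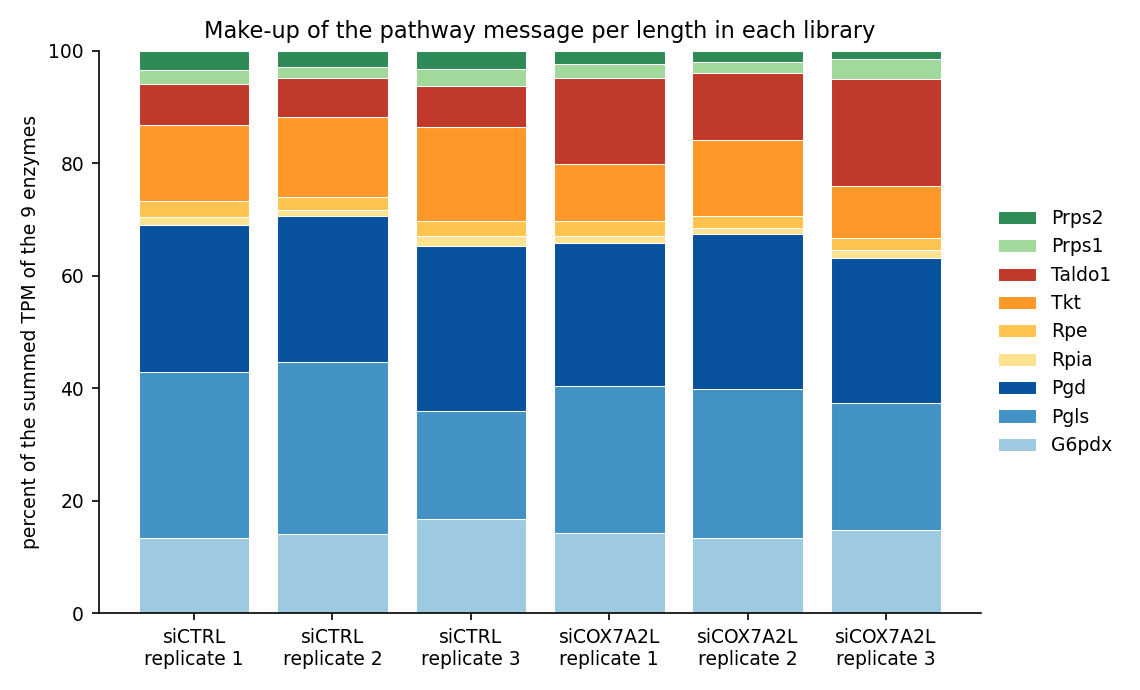
Percent of the summed TPM of the 9 enzymes held by each one, stacked to 100 in each of the 6 libraries, with the oxidative arm in blue, the non-oxidative arm in yellow to red and the PRPP synthetases in green. The red Taldo1 band is 6.84% to 7.36% high in siCTRL and 12.1% to 19.0% in siCOX7A2L, and the blue oxidative bands take 63.1% to 70.6% in every library.

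For Prps1 the TPM and CPM scales parted. Counts divided by TPM give the transcript length that the quantification assumed, and for Prps1 this length, relative to the median gene of each library, was 0.841, 0.842 and 0.738 in siCTRL. In siCOX7A2L it was 0.756, 0.708 and 0.392. The highest was 2.15 times the lowest, a spread reached by 4.63% of 13167 genes, whose median was 1.19. For Taldo1 the same spread was 1.06. In siCOX7A2L replicate 3, Prps1 was therefore at 12.9 CPM, its lowest value, and at 8.60 TPM, close to the 8.74 TPM of replicate 2. With the most abundant gene row left out of TPM, Prps1 was at 19.4, 15.6 and 15.2 in siCTRL replicates 1 to 3. In siCOX7A2L it was then at 19.8, 16.3 and 18.5, above siCTRL in each number. The direction of the Prps1 difference thus depended on the scale.

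The genes most like Taldo1 across the 6 libraries were found by the root mean square difference of log2 CPM, each gene centred on its own mean, among 9199 genes with at least 10 CPM on average. Nearest was Itgb8, an integrin beta subunit, with a difference of 0.09. It was followed by Klhl24, a substrate adaptor of a ubiquitin ligase (0.22), Nt5c, a cytosolic nucleotidase (0.23), Mxd4, a MAX-binding repressor (0.23), and Erlin2, an endoplasmic reticulum membrane protein (0.23). Itgb8 was at 11.1, 9.84 and 8.98 CPM in siCTRL and 27.1, 23.5 and 26.3 CPM in siCOX7A2L. Being picked for this pattern, the 5 genes carry no test of it.

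The genes beside Taldo1 on the chromosome were read from the same fit. In the reference annotation (GENCODE M21) the 5 nearest tested genes on one side were Phrf1, Irf7, Deaf1, Tmem80 and Eps8l2, and on the other Gatd1, Slc25a22, Pidd1, Rplp2 and Pnpla2. By edgeR, 0 of these 10 passed the threshold, 5 had a log2 fold change above 0, and their median was 0.02. The range ran from -0.58 (Pidd1, edgeR adjusted p = 0.0945) to 1.07 (Irf7, 0.508 and 1.06 CPM on average in siCTRL and siCOX7A2L).

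Genes of the surrounding metabolism were read from 6 lists of 119 genes in all. Over all genes tested, 17.7% had an unadjusted edgeR p under 0.05 in siCOX7A2L against siCTRL. Of 14 further pentose phosphate genes 10 were tested, and 0 rose and 0 fell by edgeR, with 2 at an unadjusted p under 0.05 and a median log2 fold change of 0.04. The most abundant of them were Prpsap1, a PRPP synthetase-associated protein (70.5 ± 9.93 and 97.1 ± 8.66 CPM in siCTRL and siCOX7A2L, edgeR adjusted p = 0.0990), and H6pd, the dehydrogenase of the endoplasmic reticulum (65.3 ± 8.64 and 43.5 ± 15.8 CPM, edgeR adjusted p = 0.134). The paralogs G6pd2, Tktl1, Tktl2 and Prps1l1 were not tested. They totalled at most 1 estimated count each over the 6 libraries.

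The lists' only calls in this fit were among other NADPH sources and NAD kinases. Of these 14 genes, all tested, 1 rose, 1 fell and 12 did not pass, with a median log2 fold change of -0.17. Idh1, the cytosolic NADP-linked isocitrate dehydrogenase, was at 51.8, 45.9 and 78.7 CPM in siCTRL and 78.1, 92.8 and 121 CPM in siCOX7A2L. The groups overlapped narrowly, and every siCOX7A2L library was above its own number in siCTRL. Idh1 rose 1.67-fold, with a log2 fold change of 0.74 ± 0.13 and an edgeR adjusted p of 0.0400. The Idh1 log2 fold change was 0.73 without the block (edgeR adjusted p = 0.754), 0.70 with library size as the only scaling (edgeR adjusted p = 0.0743) and 0.43 on log2 TPM (limma adjusted p = 0.454), and none of these passed. Idh1 was called in 7 alternatives, among them DESeq2 with the block (DESeq2 adjusted p = 0.00090), and was not called in 10. Replicate 3 was the highest Idh1 library in both groups.

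The gene that fell, Nnt, is the mitochondrial transhydrogenase that makes NADPH from NADH, and its call is uncertain. Nnt is carried by 2 gene rows, and whether reads were split between them was not measured. One row (ENSMUSG00000025453.19) fell from 26.3 ± 4.32 to 13.3 ± 5.06 CPM (log2 fold change -1.04 ± 0.18, edgeR adjusted p = 0.0378), while the other (ENSMUSG00000116207.2) was at 38.9 and 49.3 CPM (edgeR adjusted p = 0.283). Summed over both rows, Nnt was at 71.5, 63.9 and 60.1 CPM in siCTRL and 59.1, 75.9 and 52.7 CPM in siCOX7A2L, so the groups overlapped. Without the replicate block the lower row had an edgeR adjusted p of 0.735.

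Nfe2l2 itself was at 55.3, 60.6 and 79.6 CPM in siCTRL and 63.1, 73.2 and 92.9 CPM in siCOX7A2L. Each siCOX7A2L library was a little above its own number (1.14, 1.21 and 1.17 times), the groups overlapped, and the edgeR adjusted p was 0.360. Of 26 genes of the Nfe2l2 pathway and its targets other than the 9 enzymes, 0 rose and 0 fell by edgeR, with 8 at an unadjusted p under 0.05. Their median log2 fold change was -0.03, with 11 above and 15 below 0. The most abundant were the ferritin genes Ftl1 (2799 ± 169 and 2683 ± 322 CPM) and Fth1 (1259 ± 109 and 1579 ± 398 CPM).

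The redox defence list, labelled NADPH users, held 22 genes, not all of which take NADPH directly. Of these, 0 rose and 0 fell by edgeR, with 2 at an unadjusted p under 0.05 and a median log2 fold change of -0.04. Thioredoxin reductase Txnrd1 was at 341 ± 56.0 and 339 ± 63.6 CPM, and peroxiredoxin Prdx2 at 297 ± 58.9 and 290.4 ± 72.6 CPM. Another list held 21 tested genes of purine, pyrimidine and NAD synthesis, routes that take up PRPP, though not at every step. Of these, 0 rose and 0 fell by edgeR, with 7 at an unadjusted p under 0.05. Their median log2 fold change was -0.24, with 16 of 21 below 0, beside 0.01 over all genes. The most abundant were Cad, which starts pyrimidine synthesis (299 ± 84.3 and 252 ± 65.9 CPM), and Pfas of the purine route (163 ± 48.2 and 133 ± 32.7 CPM).

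Glycolysis shares fructose 6-phosphate and glyceraldehyde 3-phosphate with the products of Taldo1 and Tkt. Of its 23 tested genes and regulators, 0 rose and 0 fell by edgeR, with 5 at an unadjusted p under 0.05 and a median log2 fold change of -0.09. Pyruvate kinase Pkm was at 3573 ± 524 and 3327 ± 466 CPM, and the aldolase Aldoa, in its main gene row, at 1073 ± 175 and 1114 ± 86.5 CPM. Apart from Taldo1, Idh1 and 1 row of Nnt, no gene of the pathway or these lists passed the threshold in this fit.

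**Figure D5:**
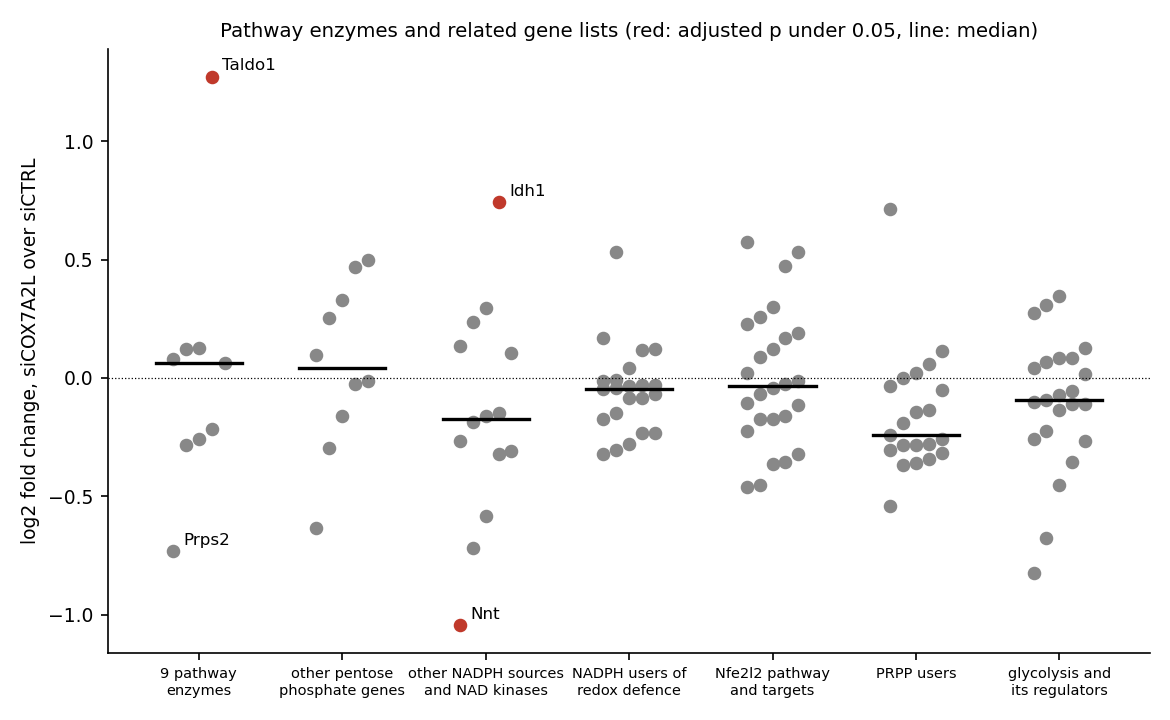
Log2 fold change, siCOX7A2L over siCTRL, of each tested gene (points) in the 9 enzymes and the 6 related lists, with the list's median as a line and genes with an edgeR adjusted p under 0.05 in red. Taldo1 at 1.27 lies above every other point, and Idh1 at 0.74 and 1 row of Nnt at -1.04 are the other red points. The medians run from -0.24 (purine, pyrimidine and NAD synthesis, labelled PRPP users) to 0.06 (the 9 enzymes).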

How the data were processed

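The authors deposited estimated counts per gene, not scaled to depth, and TPM, scaled to transcript length and library. Per the file headers, another table deposited by the authors holds scaled counts (a normalised signal), log2 fold changes with standard errors, a test score, p-values and adjusted p-values. Genome build mm39 is named in the submitters' processing notes, which also list the tools DESeq2 1.30.1, Salmon 0.13.1 and Trim Galore 0.6.4 but give none of their roles. The annotation release is not given in the sources used here.

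Gene identifiers, versions dropped, were given symbols from GENCODE M21, which named 97.6% of gene rows. One row without a symbol took 5.81% to 11.1% of counts and 36.9% to 53.6% of TPM, so TPM of other genes depends on it. Counts, foreseen as whole, were rounded before edgeR 4.0.16 was run under R 4.3.3 (TMM factors, expression filter by group, robust quasi-likelihood fit of replicate number and group, Benjamini-Hochberg adjustment at 0.05), with limma 3.58.1 and DESeq2 1.42.0 as alternatives. Log2 values of pairs used a prior count of 2, and log2 TPM had 0.5 added. The code was run on simulated counts with known fold changes in well-counted genes, a fixed dispersion and replicate effects alike in both groups. That run checked the code and not how well the model fits these libraries. Intervals are SD or SE over libraries, and depth adds counting error, most in siCOX7A2L replicate 3.

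Pairing was checked by correlating deviations from the group means over genes. The correlation between same-numbered libraries was 0.53, 0.45 and 0.67, each above 0.1, and replicates 1 and 2 also correlated across numbers (0.43 and 0.44), so pairing is clear only for replicate 3. The labels do not say what a number shares.

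Named genes were the 9 enzymes, Cox7a2l, Nfe2l2, the called genes of each related list (at most 4 per direction) or, with none called, its 2 most abundant, the 5 genes with the pattern most like Taldo1, and the 5 tested neighbours on each side. Gpx4, in the closing observations, was picked after its values were seen. The members and lists were chosen with earlier results of these data known. Where a symbol had 2 gene rows, the lower identifier was used in lists. Promoter windows are RefSeq's on GRCm38.p6, another build than that of the counts.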

Additional observations from a re-analysis of the deposited data

How the results depend on the processing

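The log2 fold change of Taldo1 was above 0 under all 17 alternatives (0.98 to 1.36) and was called in 9. Without the replicate block it was 1.27 by edgeR, with 0 enzymes, 0 list genes and 2 of all genes called (109 with the block). On log2 TPM with limma it was 0.98, with 0 enzymes, 0 list genes and 14 genes called, the median of all genes was -0.21, and G6pdx (-0.14), Pgd (-0.14), Pgls (-0.14) and Rpia (-0.21) turned negative, near or above that median. DESeq2 called 493 genes with the block (2 enzymes, 5 list genes) and 27 without it (Taldo1, 0 list genes). A term for replicate 3 gave 197 genes, library size alone 58 (1 list gene), and no filter 1257 (2 enzymes, 11 list genes). Leaving out a replicate number gave 51 to 1210 genes, 1 to 3 enzymes and 1 to 11 list genes, with Taldo1 at 1.10 to 1.36, Pgls at -0.071 to 0.26 and Rpia at -0.0066 to 0.11. Leaving out 1 library, without the block, gave 0 to 2 genes, 0 enzymes and 0 list genes. Taldo1 was then 1.34, 1.31 and 1.15 without siCTRL replicates 1, 2 and 3 and 1.27, 1.31 and 1.20 without siCOX7A2L replicates 1, 2 and 3. Pgls was -0.23 without siCTRL replicate 3 and -0.11 without siCOX7A2L replicate 2, where Pgd was -0.034. The replicate-number test called 4453 genes without a filter (2827 with it) and 2498 to 4116 without 1 library. Dropping the most abundant row raised every TPM level. Causes were not tested. DESeq2 without the block was added after seeing the data, as was leaving libraries out of the replicate-number test and of the TPM levels. The lowest count of an enzyme in any library was 83, for Prps2 in siCOX7A2L replicate 3. Rpia had the fewest counts in total, 1002 over the 6 libraries.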

Other observations

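The related lists were also read by replicate number, a term the choice of enzymes did not use. Of the purine, pyrimidine and NAD synthesis list, 33.3% (7 of 21) passed the edgeR test of replicate number, beside 18.8% of all genes. Cad (edgeR adjusted p = 0.00561) and Pfas (0.00740) were among the 7. Of the redox defence list, 31.8% (7 of 22) passed. Prdx2 (edgeR adjusted p = 0.0179) and Gpx4, the lipid peroxide reductase (0.0127), were among these. The share was 26.1% for glycolysis, 21.4% for other NADPH sources and 19.2% for the Nfe2l2 list, and 0 of 10 other pentose phosphate genes passed. Differentiated muscle markers are higher in replicate 3, and their part in these differences was not tested.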
